A study of Homo sapiens with 5 samples.

Results

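The genes described here encode the numbered ubiquitin-specific proteases (USPs). They are the rows of the count table whose symbol is USP followed by a number and, at most, 1 further letter from A to X, with at least 10 counts in at least 2 of the 5 libraries. Of 51 such symbols in a table of 57221 rows, 42 met the rule. RNA was sequenced from NK92MI, a line of human natural killer (NK) cells whose introduced IL2 gene frees it from the need for interleukin in the medium. The 2 control libraries come from cells given the solvent DMSO. The 3 treated libraries come from cells given 10 µM UNC1999, a small molecule inhibitor of the histone methyltransferases EZH2 and EZH1, for 48 h. The comparison asks how the drug changed the RNA of each gene. There was a single line, dose and time. The labels do not state whether replicate libraries were grown separately, so p-values measure the spread between these libraries, which may be technical.

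USPs are the largest family of deubiquitinases in human cells. Most are cysteine proteases that cut the bond between ubiquitin and a substrate, or between ubiquitin units in a chain, and so oppose the ubiquitin ligases. Individual members act on histones, on DNA repair proteins, on signalling adaptors and receptors, or at the proteasome and mitochondria. USP18 is an exception in its target: it removes the ubiquitin-like modifier ISG15, which interferons induce.

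Library totals lay between 8442908 and 8748106 counts, so depth was nearly even. Of 12 NK cell markers 11 had enough counts to be tested, among them NKG7, GNLY, PRF1 and GZMB, while NCR3 was listed at 0 in all libraries. CD7 was called higher (0.84, edgeR adjusted p = 7.38e-06) and the other 10 were not called. Of the T cell markers CD3D, CD3G, CD4 and CD8B were listed at 0 in all libraries and CD8A had at most 1 count, but CD3E (5190 to 5760 counts) and TRAC (726 to 975 counts) were present, and TRAC was called lower (-0.37, edgeR adjusted p = 0.0081). Of the B cell markers MS4A1 was listed at 0, CD79A and CD79B had at most 7 counts, and PAX5 had 149 to 219 counts. Of the myeloid markers LYZ was listed at 0, MPO and CD14 had at most 2 counts, CSF1R had 41 to 59 counts and ITGAM had 234 to 328 counts. PAX5, CSF1R and ITGAM were not called. A listed 0 need not mean low expression, since PRPF8, a spliceosome gene that all cells use, was listed at 0 as well. UNC1999 replicate 2 stood apart from the other treated libraries over all genes, with a chi-square statistic per degree of freedom of 8.09 against replicate 1 and 9.49 against replicate 3, compared with 1.87 between replicates 1 and 3 and 3.29 between the DMSO libraries.

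UNC1999 moved many USP transcripts, more of them up than down. Of the 42 genes, all of which passed the filter on low counts, 17 rose (40.5%), 8 fell (19%) and 17 did not pass the threshold, an adjusted p under 0.05 in edgeR's quasi-likelihood test with Benjamini-Hochberg adjustment over 13075 genes. Over all tested genes 15.7% were called higher and 19.5% lower. The share of USP genes called higher was thus above that of all genes, and the share called lower was close to it. All 17 higher and all 8 lower genes had treated libraries that did not overlap the controls. Over all tested genes 24.2% lay wholly above and 30.4% wholly below their controls, against 20 and 13 of the 42 USP genes. Most changes were modest: USP24, USP9X and USP37 were the 3 that at least doubled, and 0 fell to that extent. The median log2 fold change of the 42 genes was 0.16, against -0.012 over all genes. Values are relative to the whole library, and in bulk RNA fewer cells with a transcript cannot be told apart from less of it per cell. Without normalization factors the median over all genes moved to 0.091, and 19 USP genes were higher and 4 lower.

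Fold changes over the whole table moved with the GC content of the transcripts. A second fit therefore carried offsets for GC content and transcript length, and its values are called values with offsets here. The offsets were fitted to the same libraries and remove any change that runs with GC content or length, whatever its source. Where the trend comes from was not tested. In that fit 14 USP genes were higher (33.3%, against 14.9% of 11017 genes) and 5 lower (11.9%, against 19% of all). Their median was 0.0073. Of the 17 higher genes 12 were called higher again, and of the 8 lower genes 2 were called lower again. A further 2 genes were called higher and 3 lower with offsets only, and 0 genes were called in opposite directions by both fits.

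**Figure D1:**
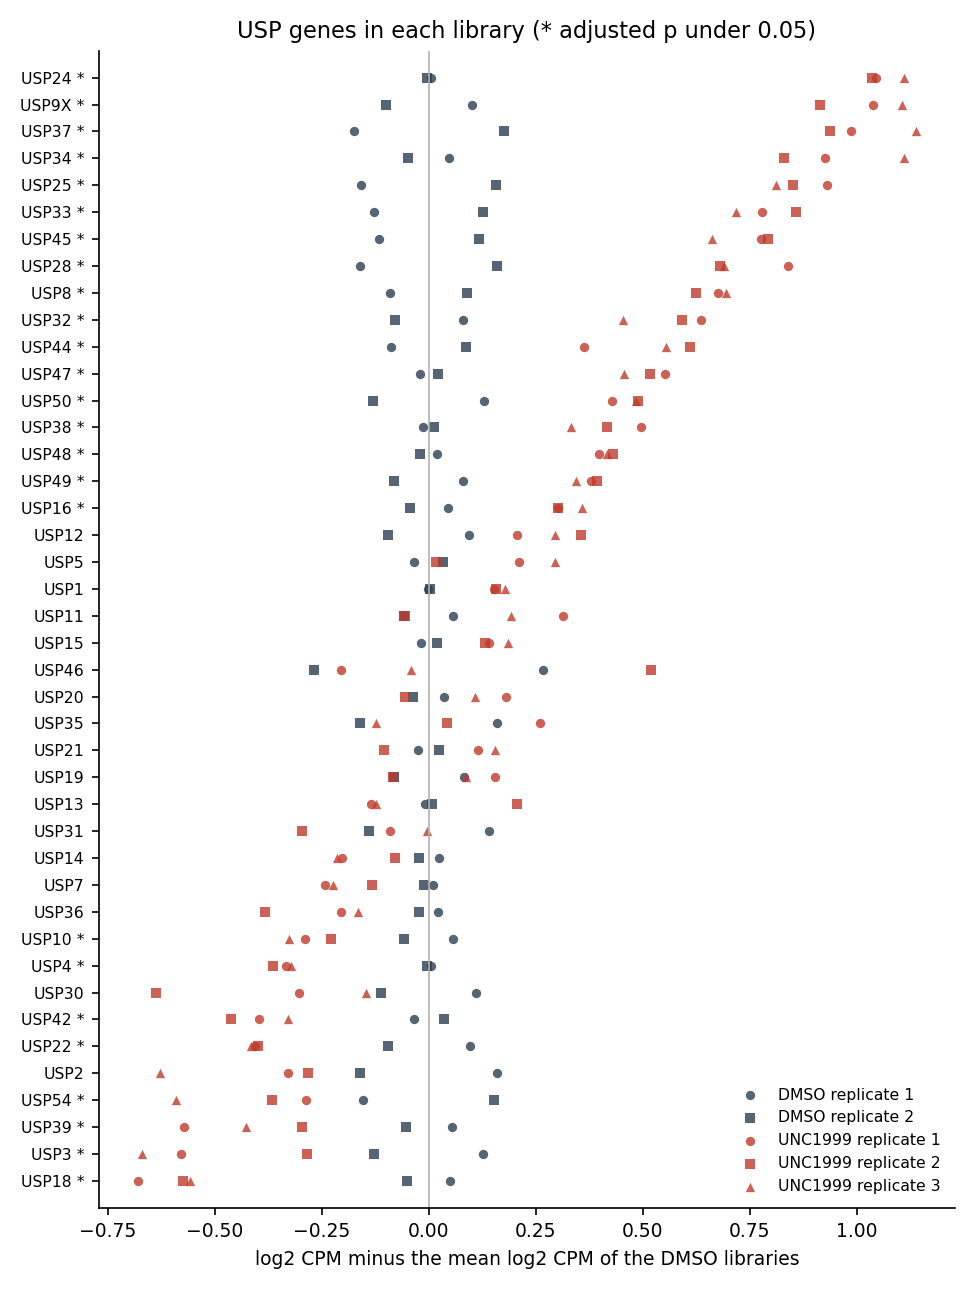
Each row is a USP gene and each point a library, plotted as log2 CPM (library-scaled counts, prior count 2) minus the mean of the DMSO libraries; rows are ordered by log2 fold change and an asterisk marks an adjusted p under 0.05. The UNC1999 points of USP24 to USP16 lie to the right of all DMSO points, and those of USP18 and USP3 at the bottom lie to the left.

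Promoter sequence was set beside the changes to show whether the higher and lower genes carry different short elements at their start. RefSeq (GRCh38.p14) gave an entry for 34 of the 42 genes. USP24, USP9X, USP37, USP44, USP48, USP31, USP42 and USP18 had no entry. Shown are the genes with the highest (USP34 and USP25) and the lowest (USP3 and USP39) fold changes among called genes with at least 150 bases between the window's start and the GENCODE gene. Each is printed 5′ to 3′ on the gene's strand, and capitals mark GC boxes (GGGCGG or its reverse complement CCGCCC), the element bound by SP1-type factors.
USP34 (higher), chr2:61471088-61471337, minus strand: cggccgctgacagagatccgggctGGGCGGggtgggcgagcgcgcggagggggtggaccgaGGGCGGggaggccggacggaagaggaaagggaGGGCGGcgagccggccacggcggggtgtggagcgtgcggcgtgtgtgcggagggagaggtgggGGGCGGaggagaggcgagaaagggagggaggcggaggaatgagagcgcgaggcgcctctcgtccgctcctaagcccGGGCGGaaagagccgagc
USP25 (higher), chr21:15729732-15729981, plus strand: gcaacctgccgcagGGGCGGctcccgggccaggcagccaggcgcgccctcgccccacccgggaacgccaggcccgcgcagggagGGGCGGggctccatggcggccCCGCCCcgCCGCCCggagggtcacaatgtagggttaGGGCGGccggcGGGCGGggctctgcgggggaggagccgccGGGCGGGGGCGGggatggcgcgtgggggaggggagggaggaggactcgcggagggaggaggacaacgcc
USP3 (lower), chr15:63504343-63504510, plus strand: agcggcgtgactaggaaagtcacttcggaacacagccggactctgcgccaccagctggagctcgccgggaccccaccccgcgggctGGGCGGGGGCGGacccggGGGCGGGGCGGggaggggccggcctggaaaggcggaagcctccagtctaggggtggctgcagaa
USP39 (lower), chr2:85602611-85602855, plus strand: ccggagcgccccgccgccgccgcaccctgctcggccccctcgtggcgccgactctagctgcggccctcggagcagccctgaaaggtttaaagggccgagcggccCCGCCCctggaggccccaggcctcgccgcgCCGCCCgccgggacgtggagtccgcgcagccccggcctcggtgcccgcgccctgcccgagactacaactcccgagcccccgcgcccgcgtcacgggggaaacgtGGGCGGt
All 4 are rich in CG dinucleotides and hold GC boxes: 5 in USP34, 8 in USP25, 4 in USP3 (some overlapping or adjacent) and 3 in USP39. Over the 250 bases before the RefSeq start, 27 of 34 USP genes (79.4%) had a GC box on either strand, against 42.3% of 27305 promoters. The USP genes with a GC box were 9 of 12 higher genes, 5 of 6 lower genes and 13 of 16 that were not called, so the element was common in each class. A CCAAT box (CCAAT or ATTGG) was found in 9 of 34 (26.5%, against 33.0% of all), and an ETS site (CCGGAAG or CTTCCGG) in 9 (26.5%, against 8.82%). A TATA box (TATAAA or TTTATA) was found in 1 (2.94%, against 11.1%). These are matches of letters in a window, not measured binding. The USP genes were kept for their counts, whereas the 27305 promoters were not. Windows of higher, lower and not called USP genes held a median of 26, 35 and 28.5 CG dinucleotides, against 11 over all promoters. Whether base composition accounts for the shares was not tested.

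USP24, a very large deubiquitinase related in sequence to USP9X, had the highest fold change. In CPM, the usual library-scaled count with the normalization factors applied, it had 40.1 and 39.8 with DMSO, then 82.8, 82.2 and 86.6 with UNC1999. The groups were far apart and each was tight: the log2 fold change was 1.07 ± 0.12 (SE), with edgeR adjusted p = 1.72e-08, and 0.79 with offsets, the highest of the 42 genes in both fits. It lies on chromosome 1 from 55066359 to 55215113 (GENCODE 29, GRCh38; the submitters name hg19). Its call held in all 16 alternatives.

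Among genes that act in NF-kappaB, TGF-beta and interferon signalling, 4 of 9 rose, 2 fell and 3 did not pass the test (median log2 fold change 0.16; 4, 1 and 0.013 with offsets). Beside this list and those below, 15.7% of all tested genes were called higher and 19.5% lower. The lists are small and some genes are in more than 1. USP9X, which trims ubiquitin from MCL1 and SMAD4, had 44.3 and 38.5 CPM in DMSO and 85.1, 78.0 and 89.2 CPM in UNC1999. Its log2 fold change was 1.02 ± 0.12 (SE; edgeR adjusted p = 5.88e-08), and 0.52 with offsets. It lies on chromosome X from 41085635 to 41236579 (GRCh38) and has a close homologue, so reads from shared stretches may be split. USP34, linked to WNT signalling through axin and with 5 GC boxes in its promoter window, had 41.8 and 39.1 CPM in DMSO and 77.1, 72.2 and 87.6 CPM in UNC1999. The treated libraries were all well above the controls (0.96 ± 0.12 SE; edgeR adjusted p = 1.81e-07; 0.47 with offsets). USP25, which acts on TRAF adaptor proteins and tankyrases, had 16.4 and 20.5 CPM in DMSO and 35.1, 33.2 and 32.3 CPM in UNC1999 (0.86 ± 0.14 SE; edgeR adjusted p = 6.62e-06; 0.79 with offsets). Its change was thus nearly as large with offsets as without them. USP38, linked to the kinase TBK1, had a log2 fold change of 0.42, but 0.0017 with offsets, and was no longer called when DMSO replicate 1 was left out (0.40, edgeR adjusted p = 0.0987) or DMSO replicate 2 was (0.43, edgeR adjusted p = 0.0723).

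USP18, the ISG15 protease that also restrains the interferon receptor by binding IFNAR2, had the lowest fold change of the 42 genes. It had 27.7 and 25.8 CPM in DMSO and 16.6, 17.9 and 18.1 CPM in UNC1999. The groups did not overlap (-0.61 ± 0.13 SE; edgeR adjusted p = 0.00044), but with offsets the value was -0.25 and the call was lost (edgeR adjusted p = 0.0906). USP18 has a close copy, USP41, which had at most 1 count in any library. IFNAR2 itself fell (-0.77, with offsets -0.46), whereas ISG15 had a log2 fold change of 0.15 and STAT2 one of -0.13, neither called. USP4, which acts on the TGF-beta receptor, had 40.5 and 40.2 CPM in DMSO and 32.0, 31.3 and 32.2 CPM in UNC1999 (-0.34 ± 0.12 SE; edgeR adjusted p = 0.0237). Its value with offsets was 0.013. The call was lost when DMSO replicate 1 (edgeR adjusted p = 0.138) or 2 (0.115), or UNC1999 replicate 1 (0.0751) or 3 (0.0562), was left out. USP11, a BRCA2 and TGF-beta receptor deubiquitinase and the gene with the highest CPM of the family, had 355.8 and 328.7 CPM in DMSO and 425.1, 329.1 and 390.6 CPM in UNC1999. UNC1999 replicate 2 fell among the controls, and the gene was not called (0.16 ± 0.11 SE; edgeR adjusted p = 0.296). It was called without that library (0.26, edgeR adjusted p = 0.0034) and with offsets (0.27, edgeR adjusted p = 0.0018). USP15 (0.15) and USP31 (-0.13) were not called. USP15 was lower with offsets (-0.49, edgeR adjusted p = 0.00095) but not with offsets for GC content alone (-0.27, edgeR adjusted p = 0.0753), its transcript model being 14950 bases long. Whether that model is the transcript expressed in these cells was not tested, and the same holds for USP8; their values with offsets and per kb depend on it.

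The DNA repair and replication fork list had 5 genes that rose, 0 that fell and 3 that did not pass the test, of 8 (median 0.47; with offsets 5, 0 and 0.29). Over all tested genes 15.7% rose and 19.5% fell. The transcripts of the 5 genes had 36.9 to 45.4% GC. Of all annotated genes with 27.6 to 41.3% GC 46.1% rose, and of those with 41.3 to 46.0% GC 23.5% rose. USP37, which stabilises cyclin A and MYC, had 15.1 and 19.4 CPM in DMSO and 34.2, 33.0 and 38.0 CPM in UNC1999. The lowest treated library was well above the higher control (1.02 ± 0.14 SE; edgeR adjusted p = 7.03e-07; 0.54 with offsets). USP28, which acts on MYC and on the 53BP1 and p53 pathway, had 10.1 and 12.6 CPM in DMSO and 20.3, 18.2 and 18.3 CPM in UNC1999 (0.74 ± 0.16 SE; edgeR adjusted p = 0.00028). With offsets USP28 had 0.65, also called. USP45, which removes ubiquitin from the nuclease subunit ERCC1, had 6.33 and 7.49 CPM in DMSO and 12.0, 12.1 and 11.0 CPM in UNC1999 (0.76 ± 0.18 SE; edgeR adjusted p = 0.0011; 0.28 with offsets, not called). USP47, of base excision repair, had 0.51 (0.29 with offsets), and USP48, of the Fanconi anaemia pathway, had 0.42 (0.48 with offsets). USP48 was not called when DMSO replicate 1 was left out (0.43, edgeR adjusted p = 0.054) or DMSO replicate 2 was (0.39, edgeR adjusted p = 0.074). USP1, which with its partner WDR48 removes ubiquitin from FANCD2 and PCNA, had 115.1 and 115.5 CPM in DMSO and 128.2, 128.5 and 130.4 CPM in UNC1999. All 3 treated libraries were above the controls, but the change was not called (0.16; edgeR adjusted p = 0.25), and its value with offsets was -0.10.

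Genes that act on p53, MDM2 or MYC gave no common direction: 2 of 8 rose (USP28 and USP37), 2 fell and 4 did not pass the test (median -0.22; with offsets 2, 1 and -0.14). USP10, which deubiquitinates p53 and binds the stress granule proteins G3BP1 and G3BP2, had 241.4 and 223.1 CPM in DMSO and 189.8, 198.1 and 185.1 CPM in UNC1999 (-0.28 ± 0.11 SE; edgeR adjusted p = 0.0367). This call was among the weakest. It was lost when DMSO replicate 1 (edgeR adjusted p = 0.321) or 2 (0.1), or UNC1999 replicate 1 (0.138) or 3 (0.136), was left out, and the value with offsets was 0.047. USP42, a p53 deubiquitinase, had 25.6 and 26.9 CPM in DMSO and 19.9, 18.97 and 20.8 CPM in UNC1999 (-0.40 ± 0.13 SE; edgeR adjusted p = 0.0158; -0.15 with offsets, not called). Its call was lost when DMSO replicate 1 (edgeR adjusted p = 0.0668) or 2 (0.128), or UNC1999 replicate 1 (0.0535), was left out. USP7, the MDM2 and p53 deubiquitinase, had 302.7 and 298.5 CPM in DMSO and 254.2, 274.0 and 257.5 CPM in UNC1999. It was not called with all libraries (-0.20; edgeR adjusted p = 0.146) and was called without UNC1999 replicate 2 (-0.22; edgeR adjusted p = 0.0106). USP36, a nucleolar deubiquitinase of MYC, had 235.0 and 227.9 CPM in DMSO and 200.9, 177.6 and 206.4 CPM in UNC1999 (-0.25; edgeR adjusted p = 0.0715). It was called without UNC1999 replicate 2 (-0.17; edgeR adjusted p = 0.0496) and with offsets (-0.23; edgeR adjusted p = 0.0053). USP2 (-0.42 at 5.01 to 8.82 CPM) and USP13 (-0.0075) were not called, and the direction of USP13 turned with DESeq2 size factors (0.018) and without factors (0.10).

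Of 8 genes for deubiquitinases of histones H2A and H2B, 3 rose, 2 fell and 3 did not pass the test (median -0.069; with offsets 1, 3 and -0.079). The H2A deubiquitinase gene USP3, with 4 GC boxes in its shorter promoter window, had 51.4 and 43.0 CPM in DMSO and 31.4, 38.6 and 29.5 CPM in UNC1999. The groups did not overlap, with UNC1999 replicate 2 nearest the controls (-0.51 ± 0.13 SE; edgeR adjusted p = 0.0019; -0.52 with offsets). The call was lost without DMSO replicate 1 (-0.38, edgeR adjusted p = 0.111). USP22, the enzyme of the SAGA coactivator that removes ubiquitin from H2B, had 254.4 and 222.8 CPM in DMSO and 179.7, 180.5 and 178.4 CPM in UNC1999. The treated libraries were within 3 CPM of each other and well below both controls (-0.41 ± 0.11 SE; edgeR adjusted p = 0.0026; -0.21 with offsets, still called). Without DMSO replicate 1 the call was lost (-0.32, edgeR adjusted p = 0.144), as it was with offsets for GC content alone (-0.15, edgeR adjusted p = 0.0998). Among its SAGA partners ENY2 fell (-0.39), ATXN7 rose (0.63) and ATXN7L3 was not called. USP44, which acts on H2B and at the mitotic checkpoint, rose (0.52; 0.14 with offsets, not called; 0.43 and edgeR adjusted p = 0.137 without DMSO replicate 1). USP49, another H2B enzyme, rose (0.37; 0.30 with offsets), with the call lost when DMSO replicate 1 (edgeR adjusted p = 0.0582) or 2 (0.226), or UNC1999 replicate 1 (0.0501), was left out. USP16, the H2A enzyme linked to mitosis, had 0.32 (edgeR adjusted p = 0.0444), but -0.013 with offsets. Its call was lost when DMSO replicate 1 (edgeR adjusted p = 0.14) or 2 (0.264), or UNC1999 replicate 1 (0.0876) or 3 (0.119), was left out. USP21, at 0.060, was not called, nor were USP7 and USP36, which also act on histones.

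In the endosome, receptor and membrane traffic list 4 of 6 genes rose, 0 fell and 2 did not pass the test (median 0.52; with offsets 3, 0 and 0.26). The transcripts of these 4 had 39.8 to 45.7% GC. Of all annotated genes with 27.6 to 41.3% GC 46.1% rose, and of those with 41.3 to 46.0% GC 23.5% rose. USP33, which acts on receptors and the centrosome, had 17.0 and 20.3 CPM in DMSO and 32.1, 33.9 and 30.7 CPM in UNC1999 (0.79 ± 0.14 SE; edgeR adjusted p = 2.31e-05; 0.45 with offsets). USP8, which works with the ESCRT machinery on endosomes, had 38.6 and 43.8 CPM in DMSO and 65.8, 63.5 and 66.7 CPM in UNC1999. The groups were far apart (0.67 ± 0.12 SE; edgeR adjusted p = 3.33e-05). Its value with offsets was 0.071 and not called. With offsets for GC content alone it was 0.34 (edgeR adjusted p = 0.0045), the transcript model behind its length being 19026 bases, the longest of the family. USP32, a Golgi and endosome enzyme, had 39.6 and 35.4 CPM in DMSO and 58.4, 56.6 and 51.4 CPM in UNC1999 (0.56 ± 0.12 SE; edgeR adjusted p = 0.00035; 0.63 with offsets). USP32 has partial copies in the genome, among them USP6, so its counts are uncertain. USP20, the paralogue of USP33, had 289.7 and 275.4 CPM in DMSO and 320.1, 271.9 and 304.3 CPM in UNC1999. Its groups overlapped (0.081; edgeR adjusted p = 0.608), as did those of USP19, an enzyme anchored in the endoplasmic reticulum (0.054; edgeR adjusted p = 0.746). USP50, a relative of USP8 that shares 28.6% of its exon bases with it on the opposite strand, rose as well (0.47, also with offsets). Reads there cannot be told apart, so the rises of USP8 and USP50 may not be separate among the 4.

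The members that act at the proteasome, on free ubiquitin chains or at mitochondria were not called (0 of 5, USP13 included). USP14, which edits chains at the proteasome, had 59.0 and 57.1 CPM in DMSO and 50.4, 54.9 and 49.95 CPM in UNC1999 (-0.16; edgeR adjusted p = 0.273). With offsets it was called lower (-0.58; edgeR adjusted p = 9.14e-07), the lowest value of the 42 genes in that fit. USP5, which recycles free ubiquitin chains, had 163.3 and 171.0 CPM in DMSO and 193.4, 169.1 and 205.0 CPM in UNC1999 (0.18; edgeR adjusted p = 0.218). UNC1999 replicate 2 lay between the controls, and the gene was called without that library (0.26, edgeR adjusted p = 0.0051) and with offsets (0.25, edgeR adjusted p = 0.004). USP30, on the outer mitochondrial membrane, had -0.36 (edgeR adjusted p = 0.0635) and was called without UNC1999 replicate 3 (-0.47, edgeR adjusted p = 0.0227); USP35 had 0.064. The other WDR48-bound genes, USP12 (0.29; edgeR adjusted p = 0.072) and USP46 (0.11, at 4.64 to 8.18 CPM), were not called either, nor was WDR48 (0.25). Of their shared partner genes WDR20 fell (-0.48, with offsets -0.14, not called).

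USP39 and USP54, the measured genes of a mixed list of RNA processing genes and members classed as inactive, both fell. Protease activity was not measured here. USP39, a spliceosome protein without protease activity, had 285.3 and 264.9 CPM in DMSO and 184.7, 223.9 and 204.4 CPM in UNC1999. The highest treated library stayed below the lower control (-0.43 ± 0.11 SE; edgeR adjusted p = 0.0021), but with offsets the value was -0.053 and not called. Without DMSO replicate 1 the call was lost (-0.38, edgeR adjusted p = 0.0807). USP54 had 11.8 and 14.6 CPM in DMSO and 10.7, 10.1 and 8.65 CPM in UNC1999 (-0.43 ± 0.17 SE; edgeR adjusted p = 0.043; -0.20 with offsets, not called). Its call was lost in 11 of the 16 alternatives, the most of the 42 genes, among them DESeq2 size factors (edgeR adjusted p = 0.0581), no filter on low counts (0.062) and the fits without DMSO replicate 2 (-0.26, edgeR adjusted p = 0.415) or UNC1999 replicate 3 (-0.34, edgeR adjusted p = 0.158).

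Related genes did not always move together. The log2 ratio of the CPM of 2 paralogues within a library needs no scaling between libraries, and it was computed for 9 pairs. For USP7 over USP47 it was 3.43 and 3.37 in DMSO, then 2.60, 2.75 and 2.72 in UNC1999, a shift of -0.71. USP20 over USP33 gave 4.09 and 3.76 in DMSO and 3.32, 3.0 and 3.31 in UNC1999, also -0.71. USP4 over USP15 gave 0.97 and 0.93 in DMSO, then 0.47, 0.45 and 0.44 in UNC1999, a shift of -0.50. In each of these pairs the groups were apart, and USP47, USP33 and USP15 gained relative to their paralogues in these ratios, which carry no offsets. With offsets USP15 had a log2 fold change of -0.49 and USP4 one of 0.013, so the direction of that pair turned. USP47 (0.29, against -0.15 for USP7) and USP33 (0.45, against -0.0067 for USP20) kept theirs. USP16 over USP45 (-0.44), USP35 over USP38 (-0.36) and USP25 over USP28 (0.12) also had groups that did not overlap. USP24 over USP9X (0.045), USP5 over USP13 (0.19) and USP12 over USP46 (0.19) overlapped. With 2 against 3 libraries the smallest two-sided exact permutation p is 0.1, which these 6 pairs reached (0.15 adjusted over the 9 pairs), so 0 of the 9 could pass 0.05. The paralogues differ in transcript GC content, for example 60.3% in USP20 and 39.8% in USP33, so the ratios carry the GC trend.

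Levels between genes were compared as CPM per kb of transcript, a level per length. In DMSO USP39 had the highest level (126.4), followed by USP11 (102.5), USP10 (77.2), USP20 (63.4), USP7 (55.5), USP5 (54.2), USP22 (45.7) and USP36 (38.2). These 8 genes held 70.1% of the summed level of the family. USP46 (0.721) and USP45 (1.10) were at the other end, and 19 genes lay below 5 CPM per kb. Of the 8 most abundant genes 3 fell and 0 rose, while with offsets 2 were called higher (USP11 and USP5) and 2 lower (USP22 and USP36). The genes that rose all came from the lower part of the range, from 1.10 to 10.1 CPM per kb in DMSO, with a median of 3.68 against 16.6 for the genes that fell and 11.8 for those not called. These levels depend on length, and the median transcript length was 5171 bases for the genes that rose and 3067.5 for those that fell. In mean DMSO CPM the genes that rose ran from 6.91 (USP45) to 46.5 (USP48). Those that fell ran from 13.2 (USP54) to 275.1 (USP39), so these ranges overlapped. The summed CPM of the family, which includes the normalization factors, was 3240 and 3090 in DMSO and 3309, 3161 and 3298 in UNC1999, so the groups overlapped. As a share of the raw library total, without those factors, it made up 0.309 and 0.297% with DMSO, then 0.339, 0.333 and 0.334% with UNC1999, and the groups did not overlap.

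**Figure D2:**
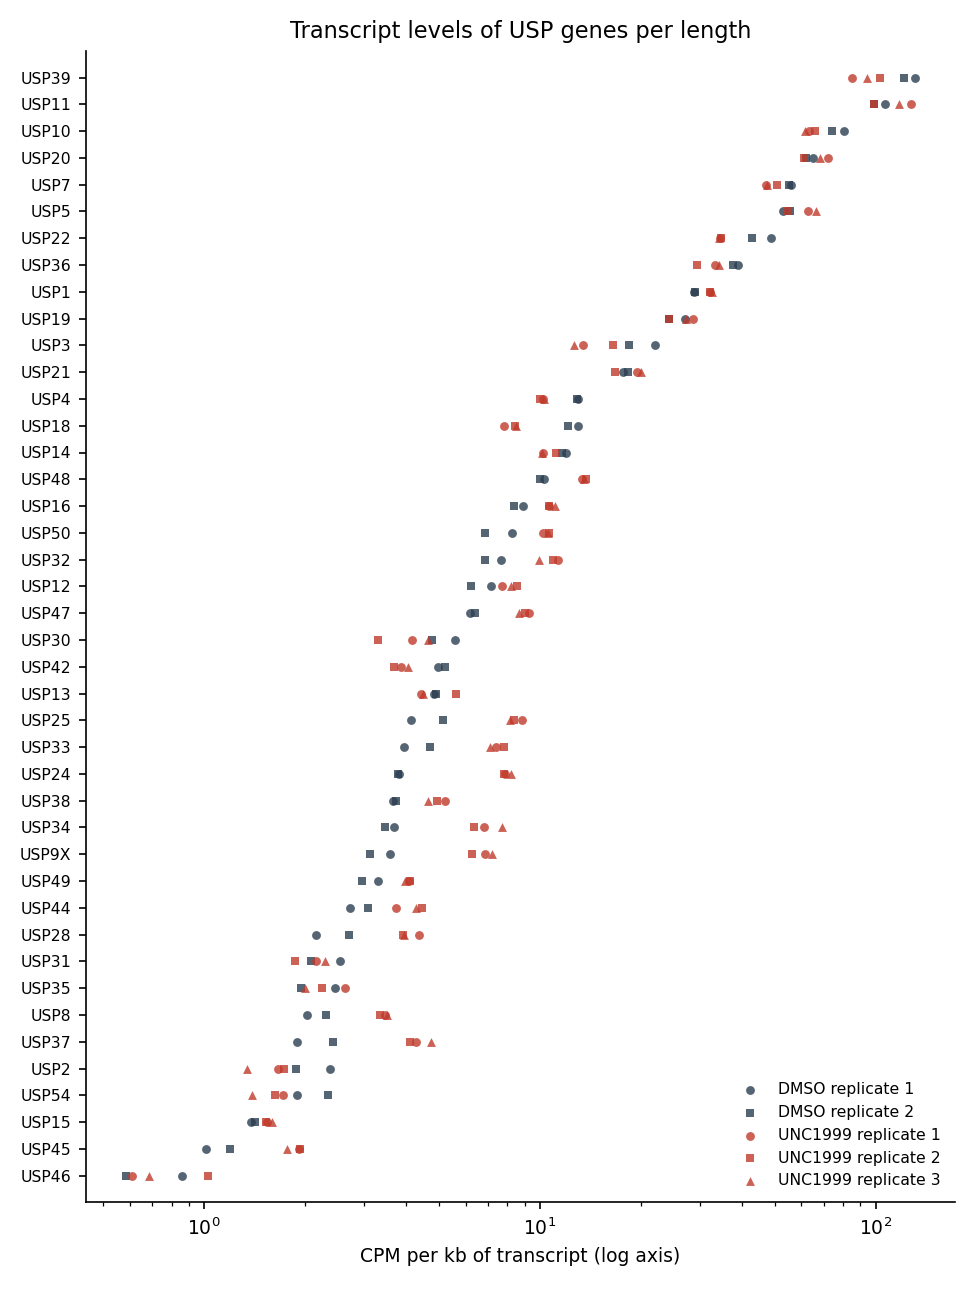
CPM per kb of transcript (log axis) for each USP gene and library, ordered by the DMSO mean. Levels run from below 1 for USP46 to over 100 for USP39, and the genes called higher without offsets lie in the lower part of the range. In the upper part the UNC1999 means of USP11, USP5 and USP20 were also above those of DMSO, but these genes were not called without offsets.

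The USP genes followed the GC trend of the whole table in part. Transcripts of the 17 higher genes had 36.9 to 45.7% GC (median 40.5%), those of the 8 lower genes 43.6 to 53.3% (median 50%), and those not called 36.5 to 61.3%. The annotated genes were split by GC content into 5 classes of nearly equal size. In the lowest class (27.6 to 41.3%) 9 of 14 USP genes rose, where 46.1% of all 2204 genes did. In the next (41.3 to 46.0%) 8 of 12 USP genes rose and 1 fell, where 23.5% of all 2203 genes rose and 18% fell. In the middle class (46.0 to 51.9%) 6 of 7 USP genes fell and 0 rose, where 47.7% of all genes fell. In the 2 highest classes USP22 was the 1 USP gene called. Across the 42 genes, which share the same libraries, Pearson's r between GC content and log2 fold change was -0.51 (Spearman's rho -0.56), and -0.15 (-0.14) with offsets. For log2 transcript length the values were 0.42 (0.38), and 0.061 (0.070) with offsets. In the class from 41.3 to 46.0% the median of the USP genes was 0.44 without and 0.39 with offsets, against 0.053 and -0.011 for all genes. In the lowest class it went from 0.47 to 0.036, against 0.40 and 0.028 for all genes. Among the higher genes USP25, USP32, USP48 and USP50, all with 43.4 to 45.7% GC, hardly moved with offsets (0.79, 0.63, 0.48 and 0.47). Without offsets USP48 (0.42) and USP50 (0.47) were among the smaller increases. USP28, also in that GC range, went from 0.74 to 0.65. These genes were picked out after their values were seen.

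**Figure D3:**
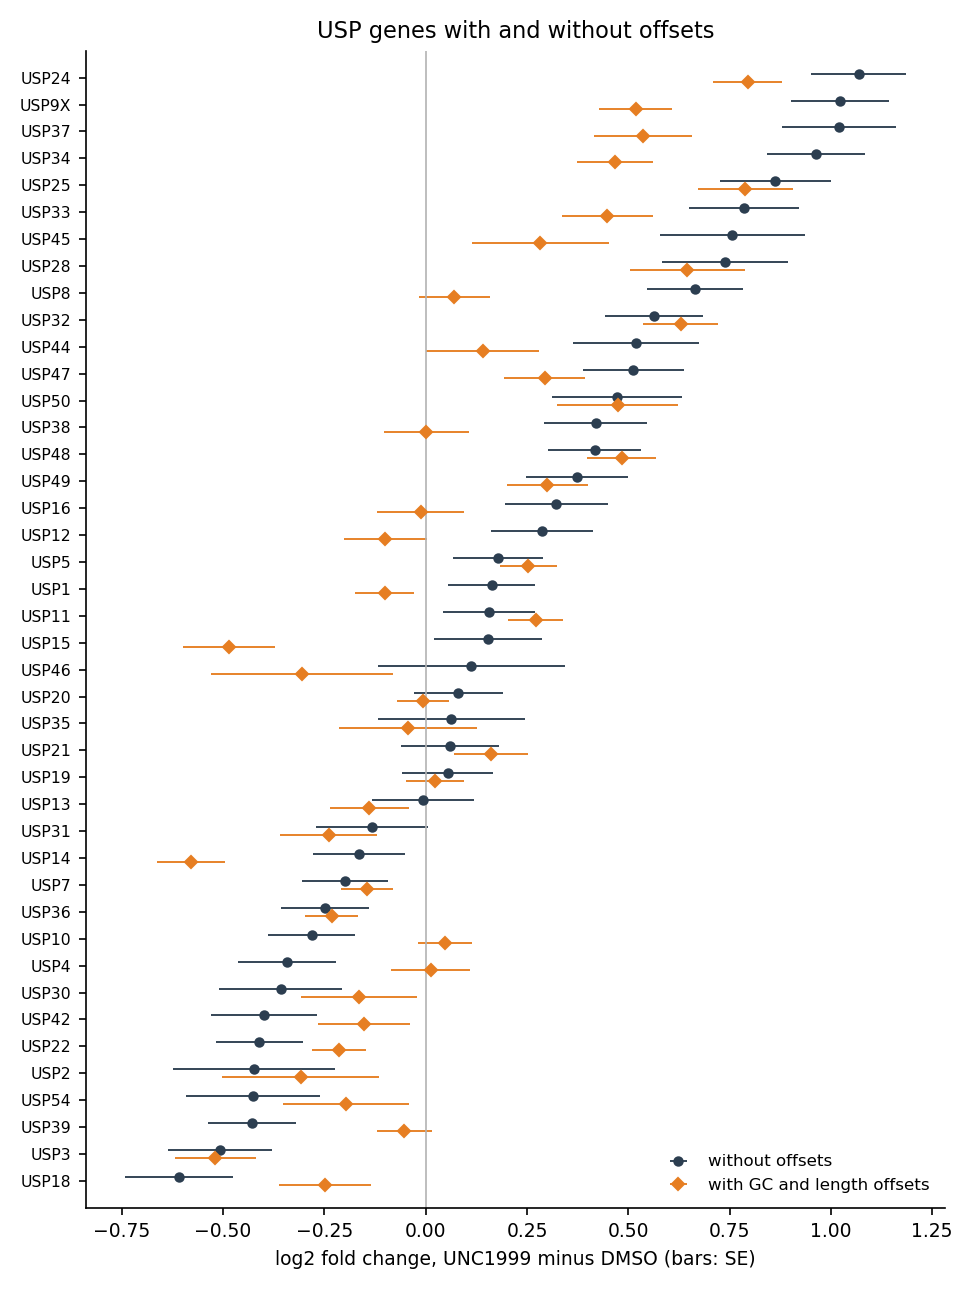
Log2 fold change of each USP gene without offsets (circles) and with GC and length offsets (diamonds), with bars of 1 SE. USP9X, USP37, USP34 and USP8 move far towards 0, USP25, USP28, USP32 and USP3 hardly move, and USP14 and USP15 move down.

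**Figure D4:**
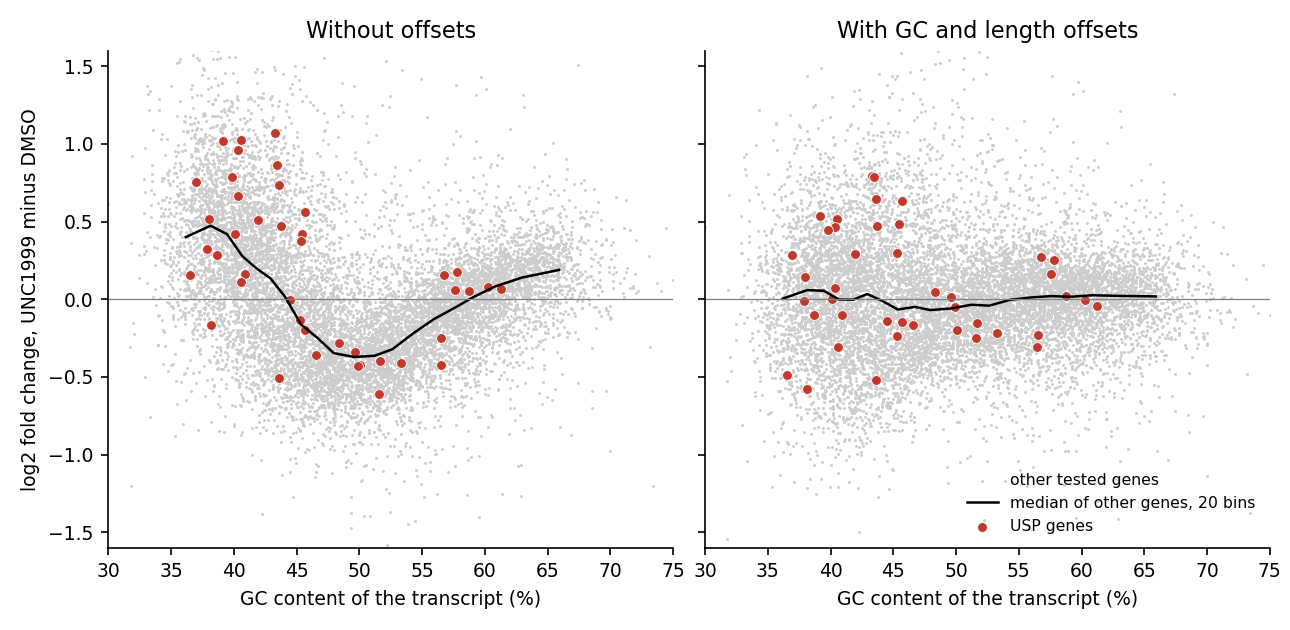
Log2 fold change against the GC content of the transcript for USP genes (red) and other tested genes (grey), with the running median of the other genes in black; genes outside the axes are not drawn. Without offsets the median line falls from low GC content to about 50% and rises again, and with offsets it is flat. The USP genes scatter around it. From 41.3 to 46.0% GC their median without offsets was 0.44, against 0.053 for all genes.

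Several USP genes share exon bases with a gene on the opposite strand, and no strand setting is given in the sources used here, so reads there cannot be told apart. In GENCODE 29 this applies to 17 of the 42. The annotation behind the counts is not given, so its overlaps may differ. USP3 shares 22.7% of its exon bases with USP3-AS1, which had 249 and 246 counts in DMSO and 174, 244 and 174 counts in UNC1999. USP3 had 414 and 362 counts in DMSO and 278, 354 and 259 counts in UNC1999, so UNC1999 replicate 2 was the highest treated library for both. USP3-AS1 fell as well (-0.45; edgeR adjusted p = 0.0099). USP37 shares 32.8% of its exon bases with VIL1, which rose (64 and 62 counts to 97, 109 and 100; 0.57, edgeR adjusted p = 0.0093). USP50 shares 28.6% with USP8. It had 92 and 80 counts in DMSO and 125, 135 and 129 counts in UNC1999 (0.47; edgeR adjusted p = 0.0195; 0.34 and edgeR adjusted p = 0.248 without DMSO replicate 2), against 311 and 368 and then 583, 583 and 586 counts for USP8. USP34 shares 18% with AHSA2P, for which no counts were available under that symbol. USP54 shares 16.1% with PPP3CB-AS1, which was not called (-0.31). How much of each change comes from the other strand was not tested. The antisense gene USP2-AS1 fell from 40 and 35 counts to 13, 23 and 20 counts (-1.12 ± 0.28 SE; edgeR adjusted p = 0.0018), while USP2 was not called.

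The other 9 numbered USP symbols fell below the rule. USP26, USP29 and USP43 were listed at 0 in all libraries. Counting error alone would allow up to 0.327 to 0.372 CPM in a library, but this limit does not cover reads lost in mapping or counting, and PRPF8 was listed at 0 too. USP6, USP27X, USP40, USP41, USP51 and USP53 had at most 5 counts in any library. None of the 9 was tested. Members just inside the rule were not near its limit: the lowest, USP46, had 39 to 75 counts.

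Genes listed under other deubiquitinase families, called other deubiquitinases here, moved in both directions. The lists go by family or domain and include genes not established as deubiquitinases, such as COPS6, ALG13 and PAN2. Over all tested genes 15.7% were called higher and 19.5% lower. Of 35 tested genes without a USP number 9 were higher (25.7%), 5 lower (14.3%) and 21 not called; their median was 0.13. With offsets 3 of 32 were higher (9.38%) and 5 lower (15.6%); the median was 0.019. In the list of JAMM domain genes 2 of 11 rose, and 1, COPS6, fell (-0.39, with offsets -0.11, not called). With offsets 3 were called higher and 2 lower. Those that rose were MYSM1, a histone H2A deubiquitinase, with 131 and 143 counts in DMSO and 381, 374 and 387 counts in UNC1999 (1.36; 0.84 with offsets), and BRCC3, of the BRCA1-A and BRISC complexes, with 91 in each DMSO library and 189, 208 and 209 counts in UNC1999 (1.03; 0.82 with offsets). In the OTU class 4 of 13 rose and 3 fell, but with offsets 0 were called higher and 3 lower. TNFAIP3, the NF-kappaB brake A20, fell from 569 and 514 counts to 296, 285 and 342 counts (-0.93; -0.65 with offsets), and its relative OTUD7B fell too (-0.76; -0.64 with offsets). Of the Josephin class ATXN3 rose (0.71; 0.22 with offsets, not called) and JOSD1 fell (-0.32; 0.020 with offsets, not called). In the MINDY and ZUP1 class FAM63B, now called MINDY2, rose (1.13) and ZUFSP, now called ZUP1, had 0.38 and was not called. Of the USP-like genes without a number USPL1, which acts on SUMO, rose (0.58; 0.31 with offsets, not called), and CYLD had 0.28 and PAN2 -0.26, neither called. UCHL5 (0.25) and BAP1 (0.087) of the UCH class were not called.

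Genes for ubiquitin itself and its activating enzymes moved in both directions. RPS27A, which encodes ubiquitin fused to a ribosomal protein, fell (-0.55; -0.49 with offsets), while UBB (-0.093) was not called. RPS27A has many processed copies, so its counts are uncertain. The activating enzyme gene UBA6 rose (0.75; 0.20 with offsets, not called), and UBA1 had 0.10, not called. With offsets UBA1 and UBB were called higher (0.20 and 0.26). Of 18 genes for binding partners of USPs 4 rose, 5 fell and 9 did not pass the test (median 0.022; with offsets 0 of 17 higher and 5 lower), with IFNAR2 and HSP90AB1 (-0.54; -0.21 with offsets) among the lower ones.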

How the data were processed

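Counts per gene symbol were used as the authors deposited them, raw and 1 column per library; hg19, HTSeq 0.13.5, STAR 2.7.9, edgeR 3.34.0 and fastp appear, without roles or settings, per the submitters' processing notes. Annotation, strand setting and multi-mapped reads: not given in the sources used here. Columns were matched to samples by name.

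All genes passing filterByExpr were fitted in edgeR 4.0.16 (R 4.3.3; TMM factors, estimateDisp, glmQLFit, quasi-likelihood F-test) with the 2 DMSO and 3 UNC1999 libraries, and p-values were adjusted over all 13075 genes by Benjamini-Hochberg at 0.05. A fold change has its SE as its size divided by the square root of F. CPM are scaled by the TMM factors. GC content and length are those of the principal GENCODE 29 (GRCh38) transcript and were available for 84.3% of tested genes and all 42 USP genes; the offsets came from splines, of 6 degrees of freedom in GC content and 4 in log2 length. Coordinates were not converted.

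The genes, lists and tests were chosen with earlier results of these data known. Named with full values were, among called members whose average log2 CPM reached 3, the 10 highest and up to 10 lowest fold changes, then the 5 most abundant not called and the paralogue pairs; other lists gave the 2 genes with the smallest p. Any further gene was named after its values were seen. Alternatives were DESeq2 1.42.0 size factors and its Wald test, no factors, no filter, a replicate block, robust dispersion, a stricter filter (mean count of 50, and 1 CPM in 2 libraries), annotated genes only, offsets, and each library left out. Offsets from the longest transcript and from GC content alone were added after the data were seen. The code was tested on simulated data. A few genes of the comparison lists are not reported here.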

Additional observations from a re-analysis of the deposited data

How the results depend on the processing

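The number of USP genes called higher stayed within 1.5 times of 17 in all 16 alternatives (12 to 19), and 8 of the 17 kept their call in every one: USP24, USP9X, USP37, USP34, USP25, USP33, USP28 and USP32. None of the 8 lower genes did. The lower count was 4 without normalization factors, 5 with the stricter filter, 5 in the DESeq2 Wald test, 5 with offsets, 5 with offsets from the longest transcript and 3 with offsets for GC content alone. With a library left out it ran from 2 (without DMSO replicate 1) to 10 (without UNC1999 replicate 2), the higher count from 12 to 19, and the median log2 fold change of the family from 0.13 to 0.18. That median, 0.16, was 0.26 without factors, 0.19 with the stricter filter, 0.0073 with offsets, 0.0072 from the longest transcript and 0.023 for GC content alone. Other deubiquitinases called higher (9) were 14 without factors, 3 with offsets, 5 from the longest transcript, 4 for GC content alone and 6 to 10 with a library left out; those called lower (5) were 3 without factors, 3 with a replicate block and 3 to 8 with a library left out.

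With the replicate number as a block 16 USP genes were higher and 7 lower. Deviations of same-numbered libraries from their group mean correlated at 0.066 and 0.038. With 2 DMSO libraries these deviations mirror each other, and UNC1999 replicate 3 has no partner. The check therefore cannot decide whether the numbers pair the libraries.

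Directions that turned were mostly of genes not called. USP13 had 0.018 with DESeq2 size factors, 0.10 without factors, 0.035 with the stricter filter, 0.040 with a replicate block, 0.018 in the DESeq2 Wald test, and -0.12 to 0.058 with a library left out. With offsets the values were -0.013 (USP16), -0.10 (USP12), -0.10 (USP1), -0.49 (USP15), -0.31 (USP46), -0.0067 (USP20), -0.044 (USP35), 0.047 (USP10) and 0.013 (USP4). From the longest transcript they were -0.0016 (USP16), -0.086 (USP12), -0.076 (USP1), -0.50 (USP15), -0.30 (USP46), -0.0036 (USP20), -0.040 (USP35), 0.069 (USP10) and 0.021 (USP4). For GC content alone they were -0.091 (USP16), -0.11 (USP12), -0.12 (USP1), -0.27 (USP15), -0.20 (USP46), -0.0045 (USP35) and 0.0038 (USP10). With a library left out USP31 ran from -0.27 to 0.011, USP46 from -0.15 to 0.41, USP35 from -0.10 to 0.23 and USP19 from -0.029 to 0.13. USP16, USP10 and USP4 were the called genes among these. The cause was not tested. Counts under 100 in every library, as for USP46, USP2 and USP35, limit what can be told for those genes.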
